A study of Mus musculus with 2 samples.

Results

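Hmgn1 and 9 genes near it on the distal end of mouse chromosome 16 were examined, in order from the centromere side Morc3, Chaf1b, Ripply3, Pigp, Ttc3, Dyrk1a, Psmg1, Brwd1, Hmgn1 and Wrb. They are 10 of 38458 gene columns in the count tables and were chosen by name, with the ratio of their levels in PD800 and PD100 already known, so these ratios are given as a description and without a test. The cells were mouse embryonic stem cells (mESCs) of DKO741, 1 line recovered from E14 cells after both alleles of Terc, the gene for the RNA template of telomerase, had been targeted. A neomycin gene flanked by loxP sites had been removed from the first allele with Cre recombinase. The PD100 library was made from DKO741 cells at passage 100, when alternative lengthening of telomeres (ALT) had not set in, and the PD800 library from the same line at passage 800, when the survivors of telomere crisis maintained their telomeres by ALT. The labels give the time as passage and also as population doubling level. No Terc+/+ library was analysed here, the line was kept on mouse embryonic fibroblasts between experiments, and the experiments used feeder-free cells. Each time point had 1 library, so an effect of the preparation and one of the time point cannot be told apart.

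Transcripts were captured with inDrops, which encloses single cells in droplets and marks every captured RNA molecule with its own random tag, the unique molecular identifier (UMI). Barcodes with at least 1000 UMIs and at most 20% mitochondrial UMIs were kept as cells, which left 814 PD100 cells with 1826233 UMIs and 900 PD800 cells with 2580963 UMIs. The median depth was 2151 UMIs per cell in PD100 and 2701.5 in PD800, and the median mitochondrial share was 1.23% and 4.42%. All 14 embryonic stem cell markers had UMIs in both libraries, at a summed level of 13119 and 13271 CPM, the UMIs of a gene divided by all UMIs of its library and brought to a common total. The summed extraembryonic endoderm markers were at 1167 CPM in PD100, with 17 of 17 detected, and at 178 CPM in PD800, with 15 of 17 detected and Gata6 and Srgn at 0. Feeder fibroblast markers were near 0, at 18.6 CPM with Col1a1 and Lum at 0 in PD100 and at 14.3 CPM with Dcn, Twist2 and Pdgfrb at 0 in PD800. Terc had 0 UMIs in both libraries, a weak check of the genotype because its RNA is mostly not polyadenylated. Among the cells, 8 barcode names occurred in both libraries.

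HMGN1 is a small high mobility group protein that binds nucleosomes, competes with the linker histone and loosens chromatin. It is known in stem cells and in the developing brain as a general modulator of chromatin access. The distal end of mouse chromosome 16 corresponds to the part of human chromosome 21 that is linked to Down syndrome, where DYRK1A, TTC3, BRWD1 and HMGN1 have been studied as dosage-sensitive genes. The other genes listed have unrelated roles. Morc3 codes for a chromatin ATPase and Chaf1b for the middle subunit of CAF-1, which places histones on newly copied DNA. Ripply3 codes for a transcriptional co-repressor of the pharyngeal region, and Brwd1 for a bromodomain protein that reads acetylated histones. Dyrk1a is a protein kinase and Ttc3 a ubiquitin ligase with tetratricopeptide repeats. Pigp belongs to the enzyme that starts the glycosylphosphatidylinositol (GPI) anchor, Psmg1 is a chaperone of proteasome assembly, and Wrb is a membrane receptor for tail-anchored proteins.

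The genes spanned the distal end of the chromosome unevenly (GRCm38 coordinates). Morc3 (chromosome 16, 93832121 to 93876073, plus strand) and Chaf1b (93883901 to 93906115, plus) lay next to each other, and Ripply3 (94328420 to 94336935, plus) followed 422 kb after the end of Chaf1b. Pigp (94358763 to 94371842, minus), Ttc3 (94370618 to 94469343, plus) and Dyrk1a (94570010 to 94695517, plus) formed the next group, and Psmg1 (95979933 to 95990960, minus) began 1.28 Mb after Dyrk1a. Psmg1, Brwd1 (95992092 to 96082526, minus), Hmgn1 (96120618 to 96127729, minus) and Wrb (96145407 to 96157852, plus) lay within 178 kb. Hmgn1 was 38.1 kb from Brwd1 and 17.7 kb from Wrb.

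Windows around the RefSeq transcription starts (GRCm38.p6) were read for 9 of the 10 genes, Wrb under the name Get1; Ripply3 was not matched. Each window held 250 bases before and 50 after the start, and 5 motifs were searched on both strands, the GC box (GGGCGG), the CCAAT box (CCAAT), the TATA box (TATAAA), the E box (CACGTG) and the NRF1 motif, spelled by the 10 capitals that end the Ttc3 stretch. The 250 bases before the start are shown for Hmgn1, the gene with the most UMIs, for Brwd1, its neighbour with the nearest ratio between the libraries, and for Ttc3, whose window nearly coincides with 1 of the 4 windows of Pigp on the other strand. They are written 5′ to 3′ on the strand of the gene, with capitals on motif matches in either direction.
Hmgn1 (chr16:96127726-96127975, minus strand): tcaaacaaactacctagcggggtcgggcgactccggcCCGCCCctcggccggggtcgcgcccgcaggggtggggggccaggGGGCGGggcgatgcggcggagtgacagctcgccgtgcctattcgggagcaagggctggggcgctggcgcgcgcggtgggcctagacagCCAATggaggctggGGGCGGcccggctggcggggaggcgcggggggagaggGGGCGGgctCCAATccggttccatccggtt
Brwd1 (chr16:96082429-96082678, minus strand): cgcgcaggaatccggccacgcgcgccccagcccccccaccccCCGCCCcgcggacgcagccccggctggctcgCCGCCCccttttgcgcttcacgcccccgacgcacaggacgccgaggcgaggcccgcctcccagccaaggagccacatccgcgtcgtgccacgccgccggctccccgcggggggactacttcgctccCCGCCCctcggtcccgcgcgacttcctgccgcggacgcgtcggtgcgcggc
Ttc3 (chr16:94370489-94370738, plus strand): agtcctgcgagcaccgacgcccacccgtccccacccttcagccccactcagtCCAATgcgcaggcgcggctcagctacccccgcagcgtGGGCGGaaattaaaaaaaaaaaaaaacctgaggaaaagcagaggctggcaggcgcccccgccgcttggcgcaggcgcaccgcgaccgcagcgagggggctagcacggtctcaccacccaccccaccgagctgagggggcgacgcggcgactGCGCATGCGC

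The GC box had 4 matches upstream of Hmgn1, 3 upstream of Brwd1 and 1 upstream of Ttc3. The Hmgn1 stretch also held 2 CCAAT boxes, and the Ttc3 stretch 1 CCAAT box and 1 NRF1 motif at its end. The full windows of 300 bases held 37 CpG sites for Hmgn1, 52 for Brwd1 and 34 for Ttc3, against a median of 7 over the 32851 windows of all genes. A TATA box was found in no window of the 9 genes and in 13.6% of all windows. A GC box was found in 35.7% of all windows, a CCAAT box in 37.4%, an E box in 7.15% and an NRF1 motif in 0.971%. The NRF1 motif also occurred in the window of Psmg1. It was found in 2 of the 4 windows of Pigp, which overlap that of Ttc3 and hold the same site. The E box in the window of Ttc3 and in the same 2 windows of Pigp was likewise 1 shared site. A match states only that these letters occur in the window.

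Hmgn1 and 7 of its neighbours were at a higher level in PD800 than in PD100, and Morc3 and Chaf1b, the farthest from Hmgn1 along the chromosome, were at a lower level. Levels are CPM, each with an exact 95% Poisson interval, and ratios are log2 values of PD800 over PD100 with exact conditional (Clopper-Pearson) 95% intervals. All intervals cover counting error only. Ratios were compared with those of the 6984 genes whose UMIs in PD100 and PD800 came to 50 or more, a minimum that all 10 genes passed. Of these 6984 genes, 33.4% were at a higher level in PD800 and their median log2 ratio was -0.34, so each ratio of the 10 genes is also given relative to that median.

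For Hmgn1, 1583 UMIs were counted in PD100 and 7116 in PD800. Its PD100 level of 867 CPM (825 to 911) and its PD800 level of 2757 CPM (2693 to 2822) lay far apart. The log2 ratio was 1.67 (1.59 to 1.75), a 3.18-fold difference, or 2.01 relative to all tested genes. By this ratio Hmgn1 took rank 356 of the 6984 genes.

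Both flanking genes were also at a higher level in PD800. Brwd1, which reads acetylated histones, had 43 PD100 UMIs and 207 PD800 UMIs, a level of 23.5 CPM (17.0 to 31.7) and 80.2 CPM (69.6 to 91.9). Its log2 ratio of 1.77 (1.29 to 2.28), or 2.11 relative to all tested genes, had an interval that contained the whole interval of Hmgn1. Wrb, which inserts tail-anchored proteins into the endoplasmic reticulum, had 55 and 135 UMIs, a level of 30.1 CPM (22.7 to 39.2) and 52.3 CPM (43.9 to 61.9). Its log2 ratio of 0.80 (0.33 to 1.28), or 1.14 relative to all tested genes, lay below that of Hmgn1, and the intervals of these neighbours did not overlap. Psmg1, on the other side of Brwd1, had 423 and 1240 UMIs, or 232 CPM (210 to 255) in PD100 and 480 CPM (454 to 508) in PD800. Its log2 ratio was 1.05 (0.89 to 1.22), or 1.39 relative to all tested genes, also with an interval below that of Hmgn1. Levels within these 178 kb were thus all higher in PD800, by between 1.74-fold for Wrb and 3.41-fold for Brwd1.

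The group from Ripply3 to Dyrk1a had fewer UMIs and wider intervals. Ripply3, the co-repressor, had 14 and 113 UMIs, or 7.67 CPM (4.19 to 12.9) and 43.8 CPM (36.1 to 52.6). Its log2 ratio of 2.51 (1.71 to 3.43), or 2.86 relative to all tested genes, was the highest of the 10 and took rank 121 of the 6984 genes. Its protein-coding transcript shared at least 10 stretches of 20 bases, on the sense strand, with transcripts of 225 tested genes, whose median log2 ratio was 0.40 against -0.34 over all. Whether reads of other genes were counted for Ripply3 was not tested. Dyrk1a, the kinase, had 14 and 54 UMIs, or 7.67 CPM (4.19 to 12.9) in PD100 and 20.9 CPM (15.7 to 27.3) in PD800. Its log2 ratio of 1.45 (0.58 to 2.41), or 1.79 relative to all tested genes, had the widest interval of the 10, which excluded 0.

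Pigp and Ttc3 overlap on opposite strands, and the strand setting of the counting is not given in the sources used here, so reads in the overlap are uncertain. Pigp, of the GPI anchor, had 80 and 198 UMIs, or 43.8 CPM (34.7 to 54.5) in PD100 and 76.7 CPM (66.4 to 88.2) in PD800, and its log2 ratio was 0.81 (0.43 to 1.20), or 1.15 relative to all tested genes. Of its 50-base stretches, 20.9% also occurred in transcripts of other genes, among them Dppa5a, a stem cell gene with 16145 UMIs in PD100 and 24974 in PD800. The part of shared reads in the level of Pigp was not tested. Ttc3, the ubiquitin ligase, had 48 and 93 UMIs, or 26.3 CPM (19.4 to 34.8) and 36.0 CPM (29.1 to 44.1). The intervals of its levels overlapped and its log2 ratio of 0.46 (-0.06 to 0.99) included 0, so a difference in its plain level was not detectable at this depth. Relative to the median of all genes it was 0.80 (0.28 to 1.33).

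Morc3 and Chaf1b differed in the other direction. Morc3, the chromatin ATPase, had 115 and 75 UMIs, or 63.0 CPM (52.0 to 75.6) and 29.1 CPM (22.9 to 36.4). Its log2 ratio was -1.12 (-1.56 to -0.68), rank 6087 of 6984. Chaf1b, of the histone chaperone CAF-1, had 205 and 178 UMIs, or 112 CPM (97.4 to 129) and 69.0 CPM (59.2 to 79.9). Its log2 ratio was -0.70 (-1.0 to -0.41). Relative to all genes the ratios were -0.77 for Morc3 and -0.36 for Chaf1b, with intervals still below 0.

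**Figure D1:**
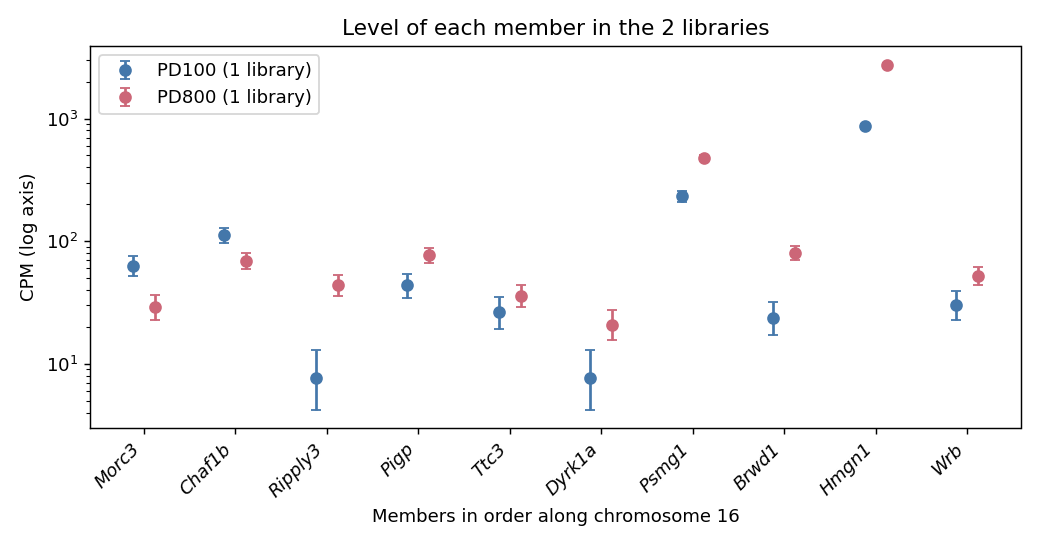
Level of each of the 10 genes in CPM on a log axis, in order along chromosome 16, for the PD100 and the PD800 library. Points are the level of 1 library and bars its exact 95% Poisson interval. Hmgn1 was at 867 and 2757 CPM, and the PD800 point lay above the PD100 point for all genes except Morc3 and Chaf1b.

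In PD800, 5 of the 10 were at least 2-fold higher (Ripply3, Dyrk1a, Psmg1, Brwd1 and Hmgn1), against 9.22% of all tested genes. Psmg1, at 2.07-fold, was just past this size and Pigp, at 1.75-fold, just short of it. Morc3 alone was at least 2-fold lower, against 16.9% of all tested genes. Relative to the median of all genes, 7 of the 10 were at least 2-fold higher, against 13.9%, and none was 2-fold lower, against 7.79%. The interval lay wholly above that median for 8 of the genes, against 30% of all tested genes, and wholly below it for 2, against 26.5%. Because the genes were chosen with these ratios known, nothing is read from these shares. The median log2 ratio of the 10 was 0.93, and without Hmgn1 it was 0.81 over 9 genes.

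Summed over the other 9 genes, the PD100 library held 997 UMIs and the PD800 library 2293, which gave a log2 ratio of 0.70 (0.59 to 0.81). Hmgn1 alone held more UMIs than these 9 together in either library, so sums are given with and without it. From Ripply3 to Wrb, 1.83 Mb whose start was chosen after the values were seen, all 8 genes were at a higher level in PD800. The share over all tested genes was 33.4%, and the interval of Ttc3, 1 of the 8, included 0. Their median log2 ratio was 1.25. Because of how this stretch was chosen, nothing is read from the count or the median. The summed log2 ratio of Morc3 and Chaf1b, which lie before Ripply3, was -0.84 (-1.08 to -0.60).

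**Figure D2:**
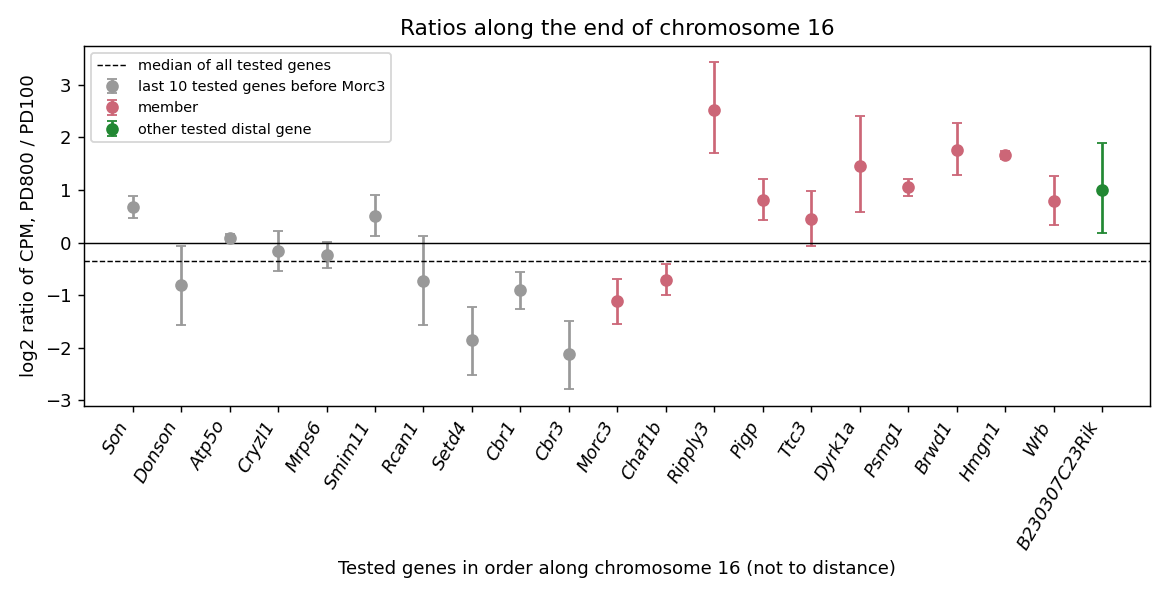
Log2 ratio of CPM, PD800 over PD100, for the last 10 tested genes before Morc3 (grey), the 10 genes described (red) and the 1 other tested distal gene (green), in order along chromosome 16 and not to distance. Bars are exact 95% intervals for counting error and the dashed line is the median of all tested genes at -0.34. Values from Rcan1 to Chaf1b lay below that line, and values from Ripply3 onwards lay above 0.

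The tested genes before Morc3 are given beside the 10 genes as a description. Among the last 10 tested genes before Morc3, 3 were at a higher level in PD800 and none was 2-fold higher, with a median log2 ratio of -0.48. The 3 genes next to Morc3 were all lower in PD800. Their log2 ratios were -1.86 for Setd4, -0.91 for Cbr1 and -2.12 for Cbr3. Over all 205 tested genes of chromosome 16 before Morc3 the median was -0.35, with 63 at a higher level and 18 at least 2-fold higher. Both counts were near the shares of all tested genes, 33.4% and 9.22%, so nothing particular to this part is read from them. Rcan1, the tested gene before Setd4, Cbr1 and Cbr3, was at -0.72 (-1.57 to 0.12). From Rcan1 to Chaf1b, 6 tested genes in a row had a ratio below 0, and the 8 from Ripply3 to Wrb a ratio above 0. Over all tested genes, 33.4% had a ratio above 0 and 4648 of 6984 a ratio below 0. The sign of the ratio changed between Chaf1b and Ripply3, both chosen with their ratios known, so no boundary is read from it. Just past this change, the counts of Ripply3, Pigp and Ttc3 are uncertain for the reasons given with each gene. The interval of Ttc3 also included 0.

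Few other genes of the distal end could be measured. Distal to the start of Morc3, over 4.2 Mb up to the last gene with a column, 37 further genes had a column, 21 had a UMI and only B230307C23Rik passed the minimum of 50 UMIs. It had 17 UMIs in PD100 and 48 in PD800, which gave a log2 ratio of 1.00 (0.17 to 1.89). Summed over all 37 genes the libraries held 90 and 180 UMIs, which gave a log2 ratio of 0.50 (0.13 to 0.88). Those beyond Wrb had 74 and 154 UMIs with a log2 ratio of 0.56 (0.15 to 0.98), and those between Morc3 and Wrb had 16 and 26 with a log2 ratio of 0.20 (-0.75 to 1.20). Without B230307C23Rik, a sum chosen after seeing the data, those beyond Wrb had 57 and 106 UMIs with a log2 ratio of 0.40 (-0.08 to 0.89), so the interval above 0 rested on that gene. For the remaining distal genes a difference in the plain summed level was not detectable at this depth. Relative to the median of all tested genes, their summed log2 ratio was 0.74 beyond Wrb without B230307C23Rik and 0.54 between Morc3 and Wrb. On this scale the sum over all genes was itself at 0.34, and that over chromosome 16 before Morc3 at 0.52. Nothing particular to the remaining distal genes is therefore read from these sums.

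The partners of these genes, meaning other subunits of the same complex or the nearest family members encoded elsewhere, were mixed in direction. Of 30 partner genes with a column, 22 passed the minimum. Of these, 8 were at a higher level in PD800, a share near the 33.4% of all tested genes, and 14 at a lower level. None was at least 2-fold higher and 3 were at least 2-fold lower, near the 16.9% of all tested genes. The median log2 ratio of the partners was -0.73 against -0.34 over all tested genes, but -0.36 against -0.34 at a minimum of 20 UMIs and -0.29 against -0.27 at a minimum of 200 UMIs, so nothing particular to the partners is read from it. Among the family of Hmgn1, Hmgn2 had 329 CPM in PD100 and 576 CPM in PD800, and its log2 ratio of 0.81 (0.67 to 0.95) lay below that of Hmgn1, with no overlap of the intervals. Hmgn3 had a log2 ratio of 0.60 (-0.07 to 1.30) on 28 and 60 UMIs, and Hmgn5 one of -0.75 (-1.27 to -0.25) on 74 and 62 UMIs.

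Partners in proteasome assembly were mixed. Psmg2, which pairs with Psmg1, had a log2 ratio of -0.78 (-1.09 to -0.46), opposite in sign to Psmg1. Psmg4 had a log2 ratio of 0.99 (0.62 to 1.38) and Psmg3, its partner in the second chaperone pair, one of 0.54 (0.18 to 0.90). Pomp, the proteasome maturation factor, had a log2 ratio of 0.29 (0.19 to 0.39).

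In the insertion of tail-anchored proteins, where Wrb acts with the product of Caml, 5 of 6 partners were lower in PD800. Over all tested genes, 4648 of 6984 were lower, so nothing particular to these partners is read from that count. Asna1, the ATPase that delivers tail-anchored proteins to the receptor, had a log2 ratio of -1.74 (-1.96 to -1.51), Ubl4a one of -1.35 (-1.65 to -1.06) and Caml one of -0.89 (-1.43 to -0.36). Get4, at 0.07 (-0.12 to 0.25), was the exception. Of the remaining CAF-1 subunits, Chaf1a had a log2 ratio of -0.80 (-1.24 to -0.35), near that of Chaf1b, and Rbbp4, which many chromatin complexes share, one of 0.21 (-0.01 to 0.43).

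Partners of the remaining genes were mostly low in count. In the enzyme of Pigp, Pigh had a log2 ratio of 0.39 (-0.33 to 1.13), Pigq one of -0.82 (-1.54 to -0.11) and Dpm2 one of -0.29 (-0.61 to 0.04). Dcaf7, the scaffold that binds Dyrk1a, had a log2 ratio of -0.73 (-1.14 to -0.33). Phip, a relative of Brwd1, was at -0.44 (-0.93 to 0.05), Morc2a at -1.22 (-1.99 to -0.49) and Akt1, a target of Ttc3, at -0.84 (-1.64 to -0.06).

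Across cells, Hmgn1 was found in a larger share of PD800 cells at equal depth. Because PD800 cells were deeper, shares were computed as the expectation for 1000 UMIs drawn from each cell, averaged over all possible draws, and no cell was shallower than that. Shares carry exact binomial 95% intervals. An Hmgn1 UMI was expected in 52.8% (49.3 to 56.3) of PD100 cells and in 90.6% (88.5 to 92.4) of PD800 cells. Without thinning the shares were 73.6% and 98.1%. Hmgn2 went from 26.6% to 41.4%, and Gapdh, an abundant enzyme of glycolysis shown for scale, from 89.8% to 94.97%. A cell type without Hmgn1 was not available to measure how much free RNA adds to these shares.

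The level per cell was shifted over the whole distribution. Scaled to 1000 UMIs of the cell, Hmgn1 had a median of 0.730 in PD100 (quartiles 0 and 1.29, highest cell 6.68) and a median of 2.61 in PD800 (quartiles 1.79 and 3.58, highest cell 8.05). No Hmgn1 UMI was seen in 215 PD100 cells (26.4%) and in 17 PD800 cells (1.89%). Of the PD800 cells, 848 (94.2%) lay above the PD100 median, and 33 PD100 cells (4.05%) lay above the PD800 median. The distributions thus overlapped at the level of single cells, which at this depth includes counting noise. The variance of the Hmgn1 count was 1.49 times that expected from the cell totals in PD100 and 1.81 times in PD800, beside medians of 1.59 over 4774 genes and 1.43 over 5081 genes.

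**Figure D3:**
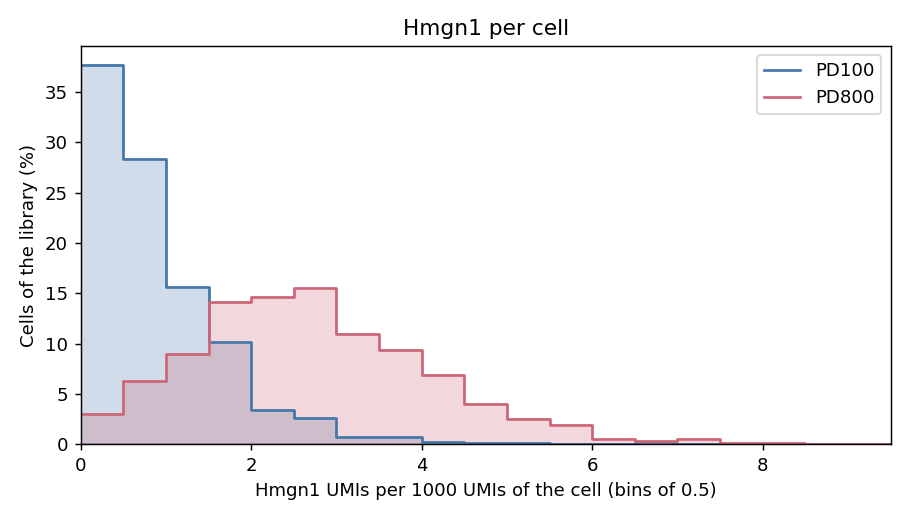
Hmgn1 UMIs per 1000 UMIs of the cell (bins of 0.5) against the percent of cells of the library, for 814 PD100 and 900 PD800 cells. The PD100 cells piled up at and near 0 around a median of 0.730, and the PD800 cells spread around a median of 2.61.

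Psmg1 was the only other gene of the 10 found in more than 10% of cells at 1000 UMIs. It was expected in 18.1% (15.5 to 20.9) of PD100 cells and 35.5% (32.4 to 38.8) of PD800 cells, and 30.2% and 63.0% without thinning. Brwd1 went from 2.06% (1.22 to 3.32) to 7.12% (5.52 to 8.99), and Pigp from 3.50% (2.30 to 4.93) to 7.07% (5.52 to 8.99). The intervals of Psmg1, Brwd1 and Pigp did not overlap between the libraries. How many of all genes have intervals without overlap was not computed. The genes were also chosen with their ratios known, so nothing is read from overlap here or below.

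Ripply3 was expected in 0.656% (0.20 to 1.43) of PD100 cells and in 4.18% (3.00 to 5.75) of PD800 cells, with no overlap of the intervals. For Dyrk1a the shares were 0.643% (0.20 to 1.43) and 1.94% (1.10 to 3.01), for Ttc3 2.14% (1.22 to 3.32) and 3.18% (2.17 to 4.6), and for Wrb 2.48% (1.51 to 3.77) and 4.43% (3.19 to 6.0). The intervals of the shares of these last 3 genes overlapped between the libraries. Chaf1b went from 9.33% (7.43 to 11.5) to 5.99% (4.54 to 7.76) and Morc3 from 5.01% (3.64 to 6.77) to 2.47% (1.54 to 3.68). These were the only shares of the 10 that were lower in PD800, and for both genes the intervals overlapped between the libraries. At least 1 of the 9 genes other than Hmgn1 was expected in 37.4% of PD100 cells and 55.5% of PD800 cells.

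**Figure D4:**
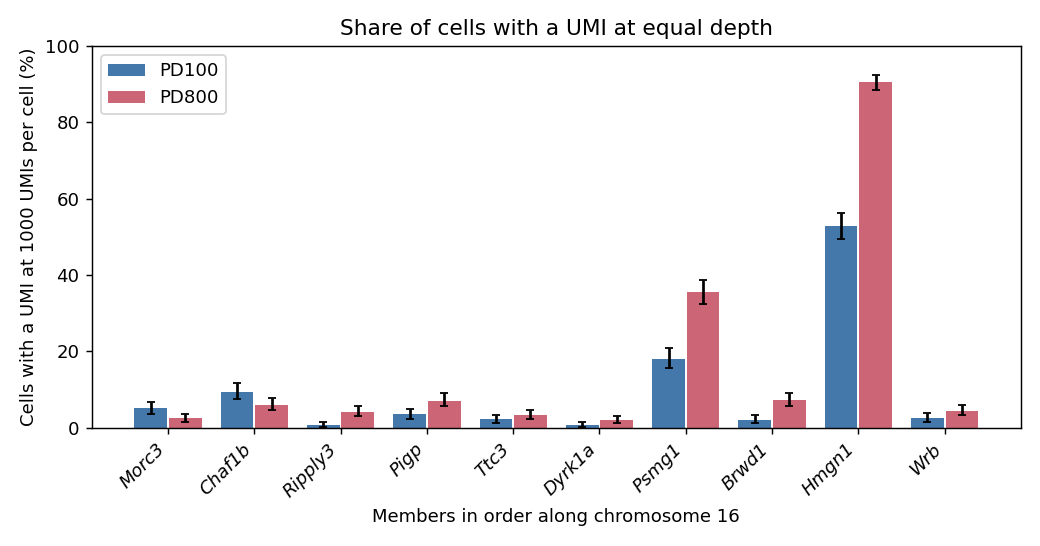
Expected share of cells with a UMI at 1000 UMIs per cell, in percent, for the 10 genes in order along chromosome 16, with exact binomial 95% intervals. Hmgn1 went from 52.8% of 814 PD100 cells to 90.6% of 900 PD800 cells and Psmg1 from 18.1% to 35.5%, while the other 8 genes stayed under 10% in both libraries.

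The Hmgn1 ratio was similar in shallow and deep cells. In cells of 1000 to under 2000 UMIs it was 1.76 (1.59 to 1.93), in cells of 2000 to under 3000 it was 1.57 (1.45 to 1.70), and in cells from 3000 UMIs it was 1.63 (1.49 to 1.77). The other 9 genes summed gave 0.75, 0.62 and 0.76 in the same bands. In PD100, 40 cells had UMIs of at least 4 endoderm markers, and in PD800 there were 0 such cells. In these 40 cells Hmgn1 was at 915 CPM (734 to 1127), against 864 CPM (821 to 909) in the other PD100 cells. Without them the Hmgn1 log2 ratio was 1.67, and without mitochondrial genes in the total it was 1.72. Ripply3 and Dyrk1a had 0 UMIs in the 40 cells, which allows up to 38.4 CPM for each, and Psmg1 was at 208 CPM (127 to 321) against 233 CPM (211 to 257).

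Within a library, cells with more Hmgn1 did not have clearly more of its neighbours. The covariation was described by Pearson r over cells, computed on residuals after the total of each cell was taken into account. In PD100, over 814 cells, r of Hmgn1 with the 9 neighbours ran from -0.040 for Brwd1 to 0.050 for Pigp. This lay within the middle 95% of r for the 9548 other genes with at least 10 UMIs in PD100, which ran from -0.063 to 0.073. With the summed UMIs of the 9 neighbours r was -0.001 in PD100 and 0.052 in PD800.

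In PD800, over 900 cells, Wrb had the highest r with Hmgn1 among the neighbours, at 0.094, above 9795 of 9850 genes compared. Ripply3 had the lowest, at -0.075, with 114 of 9850 genes lower. The other 7 ran from -0.048 for Dyrk1a to 0.043 for Brwd1, within the middle 95% of -0.066 to 0.071. For Wrb, r was -0.006 in PD100. The genes of a cell share its library, depth and capture, and in counts this sparse such small values of r are not read as a relation.

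**Figure D5:**
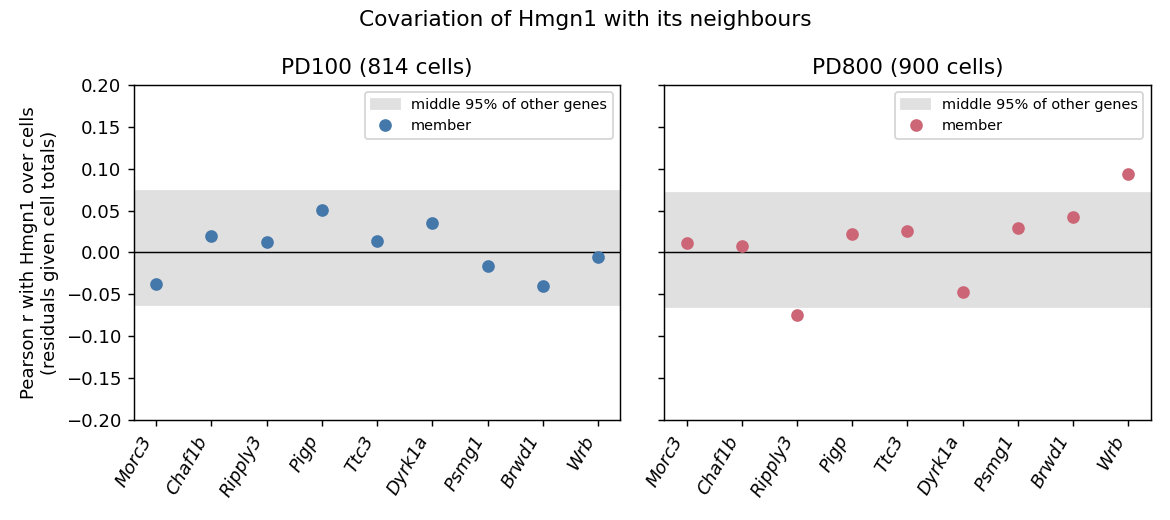
Pearson r between Hmgn1 and each neighbour over the 814 PD100 cells (left) and the 900 PD800 cells (right), on residuals given the cell totals. The grey band is the middle 95% of r of Hmgn1 with genes outside the 10 described that had at least 10 UMIs in that library. All 9 PD100 values lay inside the band, and in PD800 Wrb (0.094) lay above it and Ripply3 (-0.075) below it.

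Pairs of the 10 genes were also described by the number of cells holding UMIs of both, beside the number expected if each gene were spread over cells by their totals alone, given how many cells held each gene. In PD100, the 45 pairs summed to 721 cells against 721.9 expected, and r was above 0 for 21 of them. In PD800 they summed to 2299 against 2279.6 expected, with 25 above 0. Hmgn1 and Psmg1, the best detected pair, were found together in 182 PD100 cells (187.0 expected) and in 560 PD800 cells (557.5 expected). Hmgn1 and Brwd1 were found together in 24 PD100 cells (27.6 expected) and in 149 PD800 cells (149.6 expected). Pigp and Dyrk1a in PD800, at 3 cells against 9.18 expected, were the only pair with at least 5 expected cells whose counting interval (0.62 to 8.77) excluded the expected number. The same pair had 2 cells against 1.01 expected in PD100.

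Genes were also ranked by r with Hmgn1 among those averaging 0.1 UMI per cell or more. Of the neighbours, only Morc3, Chaf1b and Psmg1 reached this average in PD100, and all except Morc3 and Dyrk1a in PD800. No neighbour was among the genes listed here, which most could not enter in PD100. The highest r in PD100 were 0.127 for Diablo, an activator of apoptosis, 0.126 for 1110038F14Rik, 0.120 for Ccnf, 0.118 for Pes1 and 0.110 for Mrpl12. In PD800 they were 0.117 for Cdca8, a protein of the mitotic centromere, 0.116 for Rad1, 0.114 for Rps27a, 0.111 for Tomm40 and 0.110 for Atp6v1c1. None of these 10 genes was in both lists. In the other library their r with Hmgn1 ran from -0.037 for Mrpl12 to 0.059 for Pes1. The listed values are the highest of 3460 genes in PD100 and of 3569 in PD800, and are not read as a relation.

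Transcripts of Hmgn1 were nearly unique. Of their 50-base stretches, 4.33% also occurred in 5 other annotated genes, none of which had a column in the tables. For Psmg1, Morc3 and Dyrk1a the shared part was 0, and for Brwd1 it was 0.28%. How the counting pipeline divided shared reads is not given in the sources used here.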

How the data were processed

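Single-cell libraries of DKO741 mESCs at PD100 and PD800 were compared, 1 per time point, grouped by their labelled time point. The values are raw UMI counts per gene and barcode, deposited by the authors, whose inDrops pipeline mapped reads to a GRCm38/mm10 transcriptome; the annotation release is not given in the sources used here. All counts were checked to be whole. Barcodes with fewer than 1000 UMIs or over 20% mitochondrial UMIs were left out, as in the study, which removed 477 of 1291 and 766 of 1666 barcodes and left somewhat more cells than the study states.

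The 10 genes and all lists were chosen with earlier results of these data known. Counts were summed over cells and divided by the library total (CPM). Neither a test nor a standard error was computed, since each group had 1 library. Genes needed 50 UMIs in PD100 and PD800 together. Shares at equal depth were expectations at 1000 UMIs per cell over all draws without replacement. Correlations used Poisson residuals given cell totals. Named genes were the 10 genes, their partners, the other tested distal genes, the 5 genes most correlated with Hmgn1 per library, and Terc. Setd4, Cbr1, Cbr3, Rcan1, Gapdh and Dppa5a were named outside this rule, after their values had been seen. Camlg and Pigy, of the partner list, had no column. Scrublet, at an expected rate of 5%, called 14 PD100 cells (1.72%) and 8 PD800 cells (0.889%) as doublets, which were kept. Gene positions and transcripts came from GENCODE M21 (GRCm38), promoters from RefSeq.

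Alternatives covered the cell filter, scaling, minimum of UMIs, thinning, endoderm-positive cells, doublets and shared barcode names. The steps were tested on simulated data. Software was Scanpy 1.11.5, matplotlib 3.10.9, pandas 2.3.3, SciPy 1.17.1, NumPy 2.4.6 and Python 3.11.15.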

Additional observations from a re-analysis of the deposited data

Results flagged for a closer look

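The barcodes left out by the cell filter, which entered no comparison above, also held UMIs of these genes. The 477 PD100 barcodes held 208 Hmgn1 UMIs, or 843 CPM, and the 766 PD800 barcodes held 1237, or 2699 CPM. The log2 ratio of Hmgn1 there was 1.68 (1.47 to 1.90). The other 9 genes summed to 130 and 459 UMIs there, a log2 ratio of 0.93 (0.64 to 1.22). These barcodes can be shallow cells or droplets with free RNA, and which was not tested. Pigp was the only gene of the 10 whose sign differed from that in the cells, at -0.51 (-1.41 to 0.40), with an interval that included 0.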

How the results depend on the processing

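Over 133 recomputed values of 19 results, 118 were classed as the same, 15 as moved and 0 as reversed. The same meant inside the interval of the main value. For the number of genes at least 2-fold higher it meant within a fixed factor, so that 7 was classed as the same as 5. The interval of the median of the 10 genes, -0.70 to 1.77, was so wide that this median could hardly move. The ratio of each of the 10 genes kept its sign in 8 of 8 alternatives that applied to it, and that of Hmgn1 ranged from 1.63 to 2.14. The Hmgn1 log2 ratio was 2.01 with median-of-ratios scaling over the tested genes and 2.14 with that over all genes with a UMI in both libraries, a setting chosen after seeing the data. These scalings change the median of all tested genes from -0.34 to 0.00 and 0.13. Psmg1 and Chaf1b also moved under both, and Morc3 and Pigp under the second. Chaf1b was at -0.36 and -0.23, against -0.70 in the main setting, and no interval was computed for it under these scalings. The number of genes at least 2-fold higher, 5, was 3 at a minimum of 200 UMIs, which only 5 of the 10 genes passed, and 7 with either median-of-ratios scaling. The median of the other distal genes, 1.00 from 1 gene, was 0.14 over 3 genes without a filter on barcodes and 0.086 over 5 genes at a minimum of 20 UMIs. The median of the partner genes, -0.73, was -0.36 and -0.29 at minimums of 20 and 200 UMIs. No other distal gene was left at a minimum of 200 UMIs. The share of cells with an Hmgn1 UMI was 77.6% in PD100 and 98.4% in PD800 at 2000 UMIs per cell, which left out 349 and 249 shallower cells, and 73.6% and 98.1% without thinning. No paired analysis was possible because each group had 1 library, and for the same reason no replicate could be left out. Depth limits the single genes other than Hmgn1 and Psmg1, most of all Dyrk1a and Ripply3, each with 14 UMIs in PD100.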
